A study of Mus musculus with 6 samples.

Results

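The single-exon transcripts that the authors' assembly added to chromosome 1 were rows of the deposited transcript table whose name begins with MSTRG, the prefix StringTie gives to transcripts it assembled, and which were listed with 1 exon. They made up 6112 of the 10537 transcripts of the table, against 612 assembled transcripts with several exons, 3132 annotated multi-exon transcripts and 681 annotated single-exon transcripts. Of the 3813 annotated transcripts, 3801 were found among the GENCODE vM21 transcripts of chromosome 1. Shares, percentages and scaling taken from this table therefore describe chromosome 1, while the gene counts cover other chromosomes too. The cells were MC3T3-E1 Subclone 14, an osteoblast precursor line from mouse, and their RNA was sequenced in 3 groups of 2 libraries, all at 72 hours. The control group received 100 µL PBS, the dexamethasone group 10 µM dexamethasone, and the dexamethasone + EPC-EVs group 10 µM dexamethasone with 100 µg of extracellular vesicles from endothelial progenitor cells. The study set up the pairs as biological replicates of 1 cell line, and the series' own design text describes the cells and duration differently, so the sample labels were followed here. The comparisons address how dexamethasone, and the vesicles added to it, altered the RNA of these cells. These groups are called control, dexamethasone and, for the last, dexamethasone + EPC-EVs or with EPC-EVs.

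A gene is copied into a precursor RNA from which introns are removed before the messenger RNA leaves the nucleus. Reads that fall within an intron, beyond the end of a gene or between genes are joined by an assembler into blocks without a splice junction. Such blocks can come from unspliced precursor RNA, from transcription running past a gene's end or from separate noncoding RNAs. Dexamethasone is a synthetic glucocorticoid that impairs bone formation by osteoblasts when given at high dose.

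The annotation placed most of these transcripts inside introns. Against GENCODE vM21 on GRCm38, 3886 (63.6%) lay within an intron of a gene on the same strand, 1618 (26.5%) overlapped no annotated gene, 383 lay within an intron of a gene on the other strand, 212 overlapped an exon on the other strand and 13 overlapped an exon on the same strand. A gene name was given for 4797, from 711 genes, and none for 1315. The 305 transcripts that carried a name but lay outside any annotated gene were all on the strand of the named gene and downstream of it, at a median distance of 714 bases. The unnamed ones lay further out, at a median of 8074 bases from the nearest gene. Of all 6112, 3294 were on the minus strand and 2818 on the plus strand. The study's methods had the reads aligned as strand-specific, whereas the kit named in the labels is not the directional version, so each strand is given as listed.

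Their lengths ran from 200 to 9693 bases, with a median of 392 and quartiles of 288 and 682. The shortest, MSTRG.1280.1, lay in an intron of Cpa6 and was at 0 FPKM in the control and dexamethasone libraries and at 0.82 and 1.94 FPKM in the libraries with EPC-EVs. The longest, MSTRG.6679.1, had no gene name and lay 16737 bases upstream of En1, a homeobox gene. It was at 3.08 and 1.78 FPKM in control, 4.85 and 4.24 in dexamethasone, and 1.50 and 1.41 with EPC-EVs added. FPKM counts the fragments on a transcript, divided by its length and by the mapped fragments of the library, and so is a level per length.

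A small number reached into promoters, and 4 of these windows are shown because they belong to genes of insulin signalling, sterol control, mesenchymal identity and cell death. In all, 48 of the transcripts shared bases with 54 windows of 250 bases before a RefSeq gene start (GRCm38.p6), 35 of them on the strand opposite to the gene and 19 on the same strand. Each window is printed 5′ to 3′ on the strand of its gene, with the bases covered by the assembled transcript in capitals.
Irs1 (insulin receptor substrate), chr1:82291440-82291689, minus strand, with MSTRG.4774.1 on the plus strand: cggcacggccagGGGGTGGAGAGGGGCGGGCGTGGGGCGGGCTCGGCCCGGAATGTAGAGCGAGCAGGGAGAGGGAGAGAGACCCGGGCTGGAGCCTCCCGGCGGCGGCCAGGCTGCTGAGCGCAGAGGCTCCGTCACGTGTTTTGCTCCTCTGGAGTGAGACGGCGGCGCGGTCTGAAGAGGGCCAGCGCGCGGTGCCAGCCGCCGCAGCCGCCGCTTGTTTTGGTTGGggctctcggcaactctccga
Insig2 (retains the sterol sensor SCAP in the endoplasmic reticulum), chr1:121332590-121332839, minus strand, with MSTRG.7042.1 on the plus strand: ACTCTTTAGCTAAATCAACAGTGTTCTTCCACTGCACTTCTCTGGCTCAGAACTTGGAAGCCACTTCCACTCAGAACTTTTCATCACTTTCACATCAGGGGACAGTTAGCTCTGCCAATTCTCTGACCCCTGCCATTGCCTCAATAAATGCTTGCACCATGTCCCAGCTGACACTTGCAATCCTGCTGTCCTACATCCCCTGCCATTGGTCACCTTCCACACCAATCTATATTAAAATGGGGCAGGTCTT
Prrx1 (homeobox factor of limb mesenchyme), chr1:163313651-163313900, minus strand, with MSTRG.10274.1 on the plus strand: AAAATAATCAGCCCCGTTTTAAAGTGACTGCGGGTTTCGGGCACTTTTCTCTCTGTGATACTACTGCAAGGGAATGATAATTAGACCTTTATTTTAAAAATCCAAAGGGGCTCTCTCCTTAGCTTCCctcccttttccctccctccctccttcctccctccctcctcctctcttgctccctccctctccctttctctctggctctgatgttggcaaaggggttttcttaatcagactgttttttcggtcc
Casp8 (initiator caspase of death receptors), chr1:58802252-58802501, plus strand, with MSTRG.2780.1 on the plus strand: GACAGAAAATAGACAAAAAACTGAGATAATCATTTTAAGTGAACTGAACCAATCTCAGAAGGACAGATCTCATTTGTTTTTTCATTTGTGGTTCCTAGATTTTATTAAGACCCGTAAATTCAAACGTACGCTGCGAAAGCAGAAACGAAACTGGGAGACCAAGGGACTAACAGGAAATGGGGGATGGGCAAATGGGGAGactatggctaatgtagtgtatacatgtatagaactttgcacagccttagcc

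MSTRG.4774.1 lay wholly within the Irs1 window. It was at 0 FPKM in both control libraries and dexamethasone replicate 1, at 2.06 in dexamethasone replicate 2, and at 0.56 and 1.58 in the libraries with EPC-EVs, so the treated groups overlapped. MSTRG.2780.1, on the Casp8 strand, was at 2.52 and 7.11 FPKM in control, 4.14 and 4.66 in dexamethasone, and 0.96 and 0.67 with EPC-EVs added. Both dexamethasone + EPC-EVs libraries were below the other 4, but the difference from dexamethasone was not called (log2 difference -1.57, limma adjusted p = 0.1146). After upper-quartile scaling they stayed below the other 4. MSTRG.10274.1, opposite to Prrx1, was at 1.41 and 2.46 FPKM in control, 2.76 and 1.78 in dexamethasone, and 0.67 and 0.96 with EPC-EVs. MSTRG.7042.1, opposite to Insig2, was at 0.27 and 0.74, 1.302 and 0.75, and 0 in both. For these the libraries with EPC-EVs also lay below the other 4, and neither difference from dexamethasone was called (limma adjusted p = 0.2689 for the first and 0.1203 for the second). After scaling the first overlapped control. The GC box GGGCGG, searched on both strands, was found 2 times in the Irs1 window. It was in 33.3% of the 54 windows and in 32.7% of all 32851 promoter windows. The TATA box TATAAA was in 13.0% against 12.4%, CCAAT in 20.4% against 33.8%, and AGAACA, a half-site of the glucocorticoid response element, in 14.8% against 16.1%.

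Levels of single transcripts were low and varied between replicates. Every one was above 0 FPKM in at least 2 libraries. Of them, 1489 were above 0 in exactly 2 while 1631 were above 0 in all 6. The libraries held 5146760 to 13182014 gene counts. By these totals, 1 fragment on a transcript of median length equals 0.496 FPKM in the shallowest library and 0.194 FPKM in the deepest, beside medians over these transcripts of 0.363 to 1.04 FPKM. Across the 6112 transcripts, Spearman's rho between replicates was 0.25 in control, 0.30 in dexamethasone and 0.45 with EPC-EVs added, and between libraries of different groups 0.13 to 0.28. These are descriptions across transcripts that share libraries and are not independent.

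The dexamethasone + EPC-EVs libraries had the lowest levels. The median over all 6112 was 0.96 and 0.97 FPKM in control, 0.87 and 1.04 in dexamethasone, and 0.363 and 0.373 with EPC-EVs added. The summed FPKM was 12321 ± 1683 (SD, n = 2) in control, 10660 ± 809 (SD, n = 2) in dexamethasone and 4689 ± 83.7 (SD, n = 2) in dexamethasone + EPC-EVs. Control and dexamethasone overlapped, and both dexamethasone + EPC-EVs libraries lay below all the others. After scaling each library to the upper quartile of its FPKM values they still did, at 7976 and 7669 against 9167 to 10054 FPKM in the other 4. That quartile was taken over all values above 0 in the table, and these transcripts are 6112 of its 10537 rows. The scaling, here and below, therefore depends in part on their own level. With 2 libraries against 2, an exact two-sided permutation test cannot give a p below 0.33. As a share of the summed FPKM of the whole table, these transcripts held 25.2% ± 3.62, 24.9% ± 1.94 and 23.5% ± 0.0857 (SD, n = 2 each), which overlapped.

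The table as a whole also shifted between these libraries, so the level and the share did not move together. Annotated single-exon transcripts held 34.7% to 45.2% of the summed FPKM in the control and dexamethasone libraries, and 14.9% and 17.5% in the libraries with EPC-EVs. Annotated multi-exon transcripts held 12.8% to 17.0% in the first 4 libraries and 41.0% and 43.9% in the last pair, with sums of 6218 to 7304 FPKM and of 8099 and 8854 FPKM. Mitochondrial genes took 5.55% to 8.62% of gene counts in the first 4 libraries and 0.465% and 0.727% in the last pair, and the last pair was the deepest. The part of depth and composition in the levels given here was not tested. The libraries with EPC-EVs stood apart on some osteoblast markers. In CPM, counts scaled to a common library total, Col1a1 was at 2210 to 3001 in the first 4 libraries and 8608 and 6681 with EPC-EVs, Sparc at 733 to 1096 against 2426 and 2444, and Spp1 at 10270 to 11156 against 5991 and 4257. Runx2 was at 159 to 203 CPM in all 6, and Alpl, Bglap and Ibsp at no more than 6.45 CPM. Among endothelial markers, Pecam1, Cdh5, Tek, Prom1 and Emcn were at most 1.59 CPM and Vwf was at 1.37 to 4.57 CPM in all 6 libraries. Cd34 was at 366 to 412 CPM in the first 4 libraries and at 283 and 231 with EPC-EVs. Kdr was not analysed here. The part of these differences and of other cell types in the levels was not tested.

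A ratio within each library is not altered by how that library is scaled. Over 441 genes with both kinds of transcript, the FPKM summed over single-exon transcripts in introns on the same strand was divided by the FPKM summed over annotated multi-exon transcripts of the same genes. The ratio was 2.78 and 3.80 in control, 2.20 and 2.56 in dexamethasone, and 1.004 and 0.994 with EPC-EVs added. The summed FPKM of all annotated multi-exon transcripts, from which the divisor is taken, was highest with EPC-EVs. The groups did not overlap, and the means were 3.29 ± 0.717, 2.38 ± 0.254 and 0.999 ± 0.00694 (SD, n = 2 each). Gene by gene, the ratio was lower in both dexamethasone + EPC-EVs libraries than in both dexamethasone libraries for 274 of the 441 genes and higher in both for 22. For dexamethasone against control these counts were 120 and 47. These counts add 1 FPKM to each sum, and after scaling each library to its upper quartile they were 273 and 22, and 114 and 49. Each intronic value is a level per length added over blocks, so the ratio is not a share of reads.

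**Figure D1:**
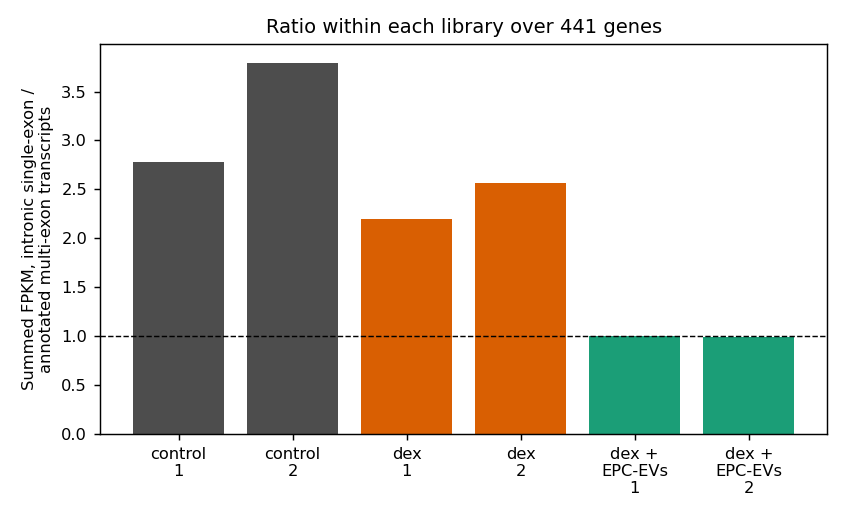
Bars show, for each of the 6 libraries, the summed FPKM of same-strand intronic single-exon assembled transcripts divided by the summed FPKM of annotated multi-exon transcripts of the same 441 genes, with a dashed line at equality. The dexamethasone + EPC-EVs libraries stand at 1.004 and 0.994, and the other 4 at 2.20 to 3.80.

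Levels differed by position and by whether a gene was named. Transcripts in same-strand introns had a median of 1.37 and 1.52 FPKM in control, 1.25 and 1.47 in dexamethasone, and 0.566 and 0.564 with EPC-EVs added. Transcripts outside genes had medians of 0.488 and 0.175, 0.410 and 0.465, and 0.0579 and 0 FPKM in the same order. Transcripts with a gene name were detected in all 6 libraries in 31.6% of cases, and those without in 8.75%.

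Longer transcripts were detected more often. Those under 300 bases (1762) had medians between 0 and 0.106 FPKM, and 88 of them were above 0 in all 6 libraries. Those of at least 1000 bases (799) had medians of 1.72 and 1.76 FPKM in control, 1.61 and 1.67 in dexamethasone, and 0.872 and 0.888 with EPC-EVs added, and 631 were above 0 in all 6. Unnamed transcripts of at least 1000 bases stood at 1.21 and 1.24, 1.16 and 1.28, and 0.392 and 0.623 FPKM.

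**Figure D2:**
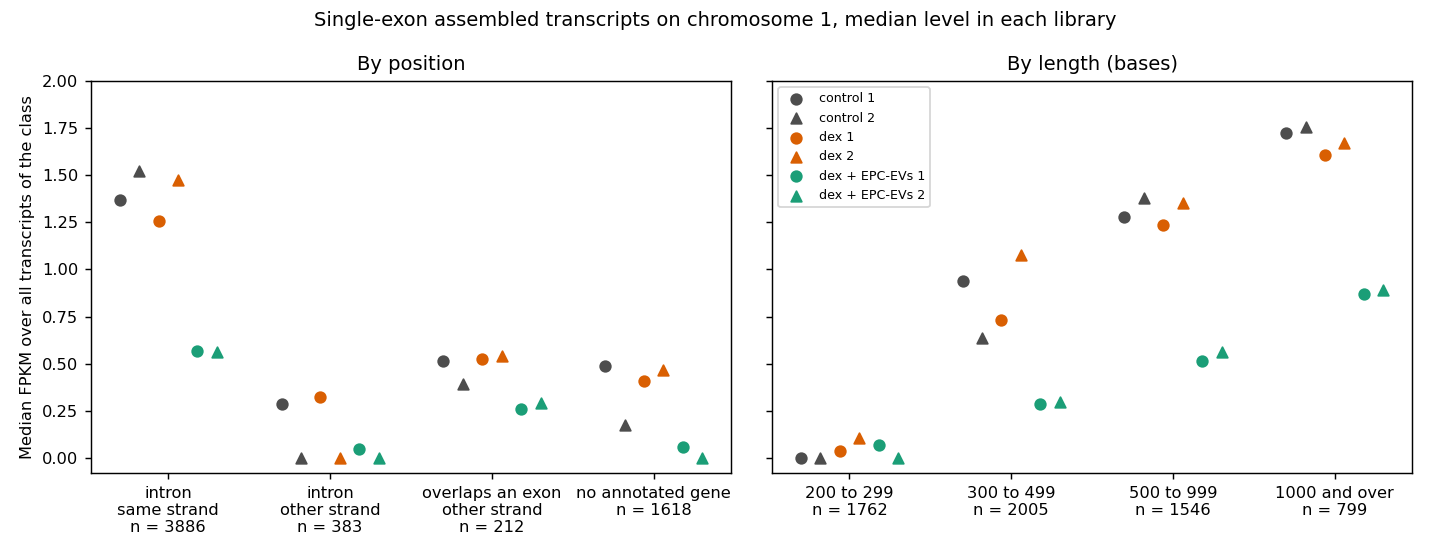
Points give the median FPKM of all single-exon assembled transcripts of a class in each library, by position on the left and by length in bases on the right, with n under each class and the 13 that overlap a same-strand exon left out. Same-strand intronic transcripts stand at 1.25 to 1.52 FPKM in the control and dexamethasone libraries and at 0.566 and 0.564 in the libraries with EPC-EVs.

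Compared with control, dexamethasone gave no single-exon assembled transcript past the threshold. Of 6112, 4442 passed the filter of at least 0.5 FPKM in at least 2 of the 4 libraries. The limma test on log2(FPKM + 1) called 0 of them at an adjusted p under 0.05, where 0.0455% of all transcripts tested were called. An unadjusted p under 0.05 was found for 440, beside 600 of all 6587 transcripts tested. The median log2 difference was -0.08, against -0.00 over all transcripts, and it turned to 0.06 after scaling each library to the upper quartile of its FPKM values. With the filter applied after scaling it was 0.05, against 0.13 over all transcripts. The fold changes on this scale understate the change of low transcripts.

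Among transcripts with an unadjusted p under 0.05 and no overlap between groups, the 3 with the largest differences in each direction were 220 to 426 bases long and at 0 FPKM in one group. MSTRG.7955.1, in an intron of Phlpp1, a phosphatase that acts on Akt, was at 0 in both control libraries and at 5.02 and 8.81 FPKM in dexamethasone. MSTRG.2734.1, in Aox1, an aldehyde oxidase, was at 0 in both control libraries and at 4.04 and 8.44 FPKM in dexamethasone. MSTRG.8828.1, in Cdc73, a subunit of the PAF1 complex, was at 0 and 0 against 5.21 and 4.84 FPKM. In the other direction, MSTRG.1085.1 in Bag2, a co-chaperone, was at 4.15 and 12.1 FPKM in control and 0 in both dexamethasone libraries. A second Cdc73 block, MSTRG.8795.1, was at 3.54 and 8.33 FPKM in control and 0 in dexamethasone, so blocks of 1 gene pointed in opposite directions. MSTRG.3212.1 in Raph1 was at 4.09 and 6.93 FPKM in control and 0 in dexamethasone. None of these 6 was called (limma adjusted p = 0.5416 for each).

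Compared with dexamethasone alone, dexamethasone + EPC-EVs gave lower values for most of the transcripts tested. Of 3909 that passed the filter, limma called 0, where 0.0159% of all transcripts tested were called. An unadjusted p under 0.05 was found for 1127, beside 1689 of all 6283 transcripts tested. The median log2 difference was -0.56, against -0.38 over all transcripts and -0.06 over the others. Both dexamethasone + EPC-EVs libraries lay below both dexamethasone libraries for 1763 and above them for 381, where 39.4% and 15.4% of all transcripts tested did. Over all 6112, with no filter, these counts were 1991 and 620. After scaling each library to the upper quartile of its FPKM values, the median was -0.19, and the transcripts with a positive difference went from 979 to 1665 of 3909. Then 1240 lay below and 696 above both dexamethasone libraries. The share over all transcripts was not taken for the scaled counts or for those with no filter. With the filter applied after scaling, the median was -0.18, against 0.05 over all transcripts. With all 6 libraries in 1 fit 2 were called, where 0.0477% of all transcripts tested were. When 1 library was left out, the median log2 difference was -0.47 to -0.69, against -0.30 to -0.47 over all transcripts. Leaving out a library leaves 1 in its group, which is then assumed to vary like the other group.

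Compared with control, dexamethasone + EPC-EVs gave 1 call among 3791 tested, where 0.0819% of all transcripts tested were called. An unadjusted p under 0.05 was found for 1145, beside 1774 of all 6106 transcripts tested. The median log2 difference was -0.64, against -0.36 over all transcripts and 0.08 over the others. Both dexamethasone + EPC-EVs libraries lay below both control libraries for 1733 and above them for 389, beside 37.7% and 18.4% of all transcripts tested. Over all 6112 they were 1874 and 689. After upper-quartile scaling the median was -0.09, and 1091 lay below and 779 above both control libraries. Here too the share over all transcripts was not taken for the scaled and unfiltered counts. With the filter applied after scaling, the median was -0.10, against 0.18 over all transcripts. With all 6 libraries in 1 fit 51 were called (50 lower), where 1.56% of all transcripts tested were. When 1 library was left out, the median log2 difference was -0.53 to -0.80, against -0.26 to -0.51 over all transcripts. The comparisons share libraries and are not independent of each other. The study's thresholds for messenger RNAs, set on DESeq results, were an unadjusted p under 0.05 with a log2 difference beyond 1. Here they were applied to the limma results. By this rule, dexamethasone + EPC-EVs against dexamethasone gave 150 higher and 876 lower, beside 6.06% and 17.6% of all transcripts. The same rule gave 172 higher and 910 lower for dexamethasone + EPC-EVs against control, beside 7.99% and 18.4%, and 211 and 224 for dexamethasone against control, beside 4.72% and 4.19%. In both directions together it took 23.7%, 26.4% and 8.91% of all transcripts tested in these comparisons.

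The called transcript, MSTRG.8056.1, was a block of 202 bases on the minus strand (chr1:132092724-132092925, GRCm38) with no gene name, 7714 bases from the nearest annotated gene, Gm26034. It was at 38.1 and 32.7 FPKM in control, 30.0 and 39.4 in dexamethasone, and listed at 0 in both dexamethasone + EPC-EVs libraries. Control and dexamethasone overlapped, and the third group lay below both (limma adjusted p = 0.04041 against control and 0.08209 against dexamethasone). It passed the filter through the group where it was high, as did every tested block at 0 in both libraries of a group, so the call is given as a description. It was lost with a pseudocount of 0.1 FPKM, without the filter, with upper-quartile scaling and without the variance trend.

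The highest of all 6112 was MSTRG.8125.1, 342 bases within an intron of Mdm4 (chr1:133007715-133008056, minus strand), whose protein restrains p53. It was at 209 and 315 FPKM in control, 183 and 250 in dexamethasone, and 30.3 and 19.4 with EPC-EVs added. The last pair lay below the other 4 libraries (log2 difference -3.09 against dexamethasone, limma adjusted p = 0.1146). A second Mdm4 block, MSTRG.8128.1, was at 8.93 and 7.85 FPKM in control, 18.0 and 32.3 in dexamethasone, and 0 in both libraries with EPC-EVs. The gene count of Mdm4 was 333 and 445 CPM in dexamethasone and 200 and 203 CPM with EPC-EVs, and it fell by 0.99 on the log2 scale (edgeR adjusted p = 0.00033).

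Blocks of other genes were also lower with EPC-EVs. MSTRG.9164.1, in an intron of Lamc1, the laminin gamma 1 chain of basement membranes, was at 26.8 and 37.8 FPKM in control, 22.9 and 23.3 in dexamethasone, and 3.41 and 4.55 with EPC-EVs added. MSTRG.7798.1, in Srgap2, was at 11.7 and 13.3 FPKM in dexamethasone and at 0.06 and 0 with EPC-EVs. MSTRG.9930.1, in Rfwd2, a ubiquitin ligase, was at 9.31 and 9.74 FPKM in dexamethasone and at 0 in both libraries with EPC-EVs. None of them was called (limma adjusted p = 0.1146 for each against dexamethasone). MSTRG.2006.7 in Ercc5, a DNA repair nuclease, and MSTRG.10473.1 in Mpzl1 were also lower in both dexamethasone + EPC-EVs libraries than in the other 4, at 4.85 and 8.20 FPKM and at 4.19 and 4.27 FPKM.

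Blocks within Irs1 differed in their values. MSTRG.4772.1, 1733 bases long, was at 19.9 and 21.7 FPKM in control, 15.9 and 15.6 in dexamethasone, and 15.7 and 12.3 with EPC-EVs added, with overlap between the treated groups. After upper-quartile scaling the libraries with EPC-EVs lay above the other 4 for this block, at 27.1 and 19.8 against 14.0 to 17.1 FPKM. MSTRG.4770.1, 480 bases long, was at 14.9 and 21.9, 10.4 and 7.22, and 0.58 and 0 FPKM in the same order. The Irs1 gene count was 222 and 254 CPM in dexamethasone and 380 and 304 CPM with EPC-EVs, a rise of 0.48 on the log2 scale (edgeR adjusted p = 0.02).

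Among blocks with an unadjusted p under 0.05 and no overlap between groups, those with the largest positive differences with EPC-EVs follow, and none of them was called. MSTRG.8229.1, 3951 bases overlapping the exons of Btg2, an antiproliferative gene, was at 2.50 and 1.47 FPKM in control, 2.57 and 3.52 in dexamethasone, and 22.6 and 14.6 with EPC-EVs added. Both dexamethasone + EPC-EVs libraries lay above the other 4 (log2 difference 2.26 against dexamethasone, limma adjusted p = 0.1146). MSTRG.7778.1 in Rassf5 was at 1.52 and 0 FPKM in dexamethasone and 11.6 and 8.08 with EPC-EVs. MSTRG.9208.1 in Nmnat2 was at 0 in both dexamethasone libraries and at 3.83 and 4.06 with EPC-EVs, but at 2.18 and 7.01 in control. For both the limma adjusted p against dexamethasone was 0.1146. MSTRG.3262.1 in Ankrd44 was at 0.67 and 0 FPKM in control, 1.97 and 0 in dexamethasone, and 6.66 and 5.18 with EPC-EVs. MSTRG.9317.1 in BC034090 was at 0 and 0.61 FPKM, 3.74 and 1.77, and 5.39 and 4.78 in the same order. For both the limma adjusted p against control was 0.1098.

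**Figure D3:**
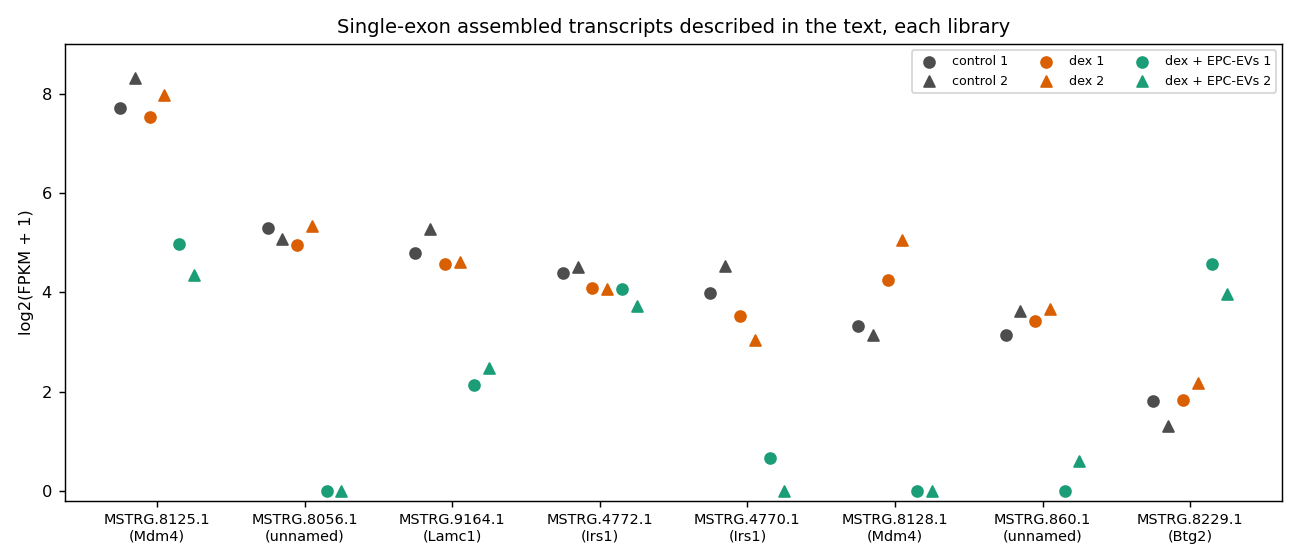
Points give log2(FPKM + 1) in each of the 6 libraries for 8 of the transcripts described in the text, with their gene name in brackets. MSTRG.8056.1 and MSTRG.8128.1 stand at 0 in both dexamethasone + EPC-EVs libraries, and MSTRG.8229.1 over Btg2 is highest in those libraries.

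Unnamed transcripts had lower medians than named ones in all 6 libraries. Among single transcripts, only MSTRG.8125.1 had a higher mean than the unnamed MSTRG.8056.1, at 168 against 23.4 FPKM. After MSTRG.8056.1, the highest unnamed ones were MSTRG.3953.1, MSTRG.860.1, MSTRG.4850.1 and MSTRG.8410.1. MSTRG.860.1 was at 7.75 and 11.2 FPKM in control, 9.77 and 11.6 in dexamethasone, and 0 and 0.52 with EPC-EVs added. MSTRG.4850.1 was at 13.1 and 9.36, 10.8 and 6.92, and 0 in both. MSTRG.8410.1 was at 9.40 and 13.8 FPKM in control, 2.84 and 3.48 in dexamethasone, and 1.22 and 0.79 with EPC-EVs, so that the 3 groups did not overlap. MSTRG.3953.1 was highest in dexamethasone, at 13.0 and 17.4 FPKM, against 8.77 and 5.98 in control and 4.20 and 5.02 with EPC-EVs. After upper-quartile scaling its values with EPC-EVs overlapped those in control. None of these 4 was called by limma in any comparison.

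The intronic blocks and the gene counts of the same genes were then set side by side. For 347 genes with a summed intronic level of at least 1 FPKM on average and a tested gene count, the intronic sum was lower in both dexamethasone + EPC-EVs libraries than in both dexamethasone libraries in 260 and higher in 6. The median log2 difference was -1.04 for the intronic sum and -0.08 for the gene count. After upper-quartile scaling 141 genes were lower in both and 43 higher, with a median of -0.37. The gene table held 598 of the 711 genes that host these transcripts. In this comparison edgeR called 80 higher and 96 lower of 474 tested, where 39.8% of all genes were called. Against control it called 70 higher and 82 lower of 470, where 36.4% of all genes were called, and for dexamethasone against control 0 of 457, where 0.0544% were called, with 40 at an unadjusted p under 0.05 and 4 by DESeq2.

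Intronic sums were next taken apart by the call on the gene count, and the difference between these sets was not tested. Among 55 genes called higher by edgeR, the intronic sum was lower in both libraries in 29 and higher in 2, with a median log2 difference of -0.66. Among 72 called lower, it was lower in both in 65 and higher in 0, with a median of -1.61. After upper-quartile scaling the medians were 0.04 and -0.96. The sum was then higher in both libraries in 13 and lower in 10 of the 55, so the balance turned, and higher in 1 and lower in 52 of the 72. Across the 347 genes, Spearman's rho between the 2 differences was 0.31, a description over genes that share libraries.

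Examples of genes with rising counts and lower intronic sums were chosen after their values were seen. For Idh1, cytosolic isocitrate dehydrogenase, the count rose from 53.9 and 39.7 to 112 and 141 CPM (log2 difference 1.39, edgeR adjusted p = 0.00020), while the intronic sum was 8.55 and 5.71 FPKM in dexamethasone and 1.12 and 3.41 FPKM with EPC-EVs. For Mapkapk2, a kinase downstream of p38, the count rose from 49.6 and 41.2 to 118 and 116 CPM (log2 difference 1.32, edgeR adjusted p = 0.0001), and the intronic sum was 30.4 and 40.1 against 18.7 and 21.4 FPKM. For Mgst3, a microsomal glutathione transferase, the count was 9.32 and 11.3 against 32.9 and 15.6 CPM (log2 difference 1.18, edgeR adjusted p = 0.02408), and the intronic sum 15.8 and 8.90 against 3.94 and 1.48 FPKM. Before scaling, the intronic sums of these groups did not overlap in any of these genes. After upper-quartile scaling they overlapped for Idh1 and Mapkapk2, and not for Mgst3.

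**Figure D4:**
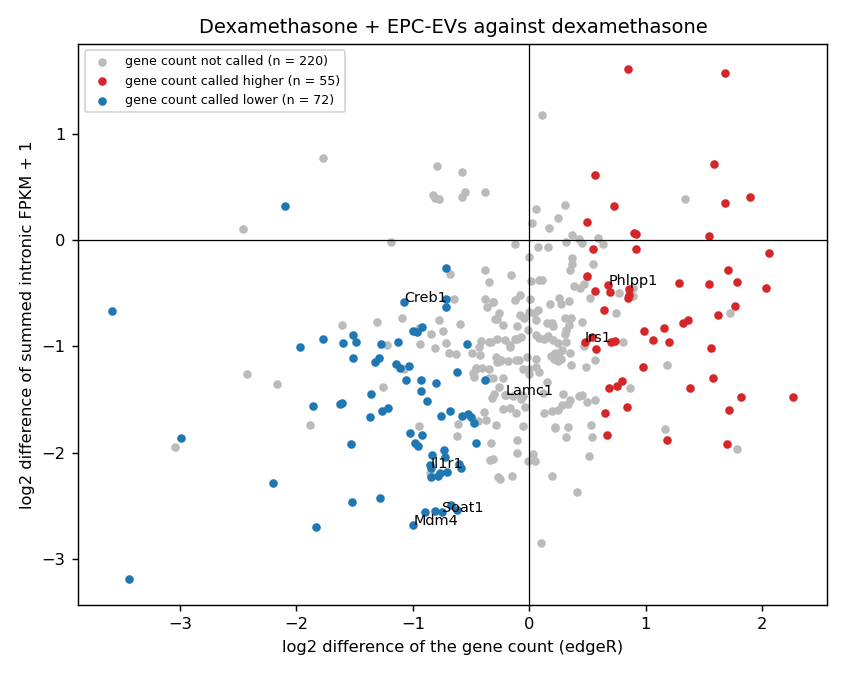
Each point is 1 of 347 genes, with the log2 difference of its gene count on the x axis and of its summed intronic FPKM + 1 on the y axis, for dexamethasone + EPC-EVs against dexamethasone. Points for the 55 genes called higher have a median of -0.66 on the y axis, and those for the 72 called lower a median of -1.61.

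Some genes held many blocks. 230 genes had 1 and 141 genes had at least 10, which together held 3115 of the transcripts. Cpa6, a carboxypeptidase gene, had 150 of 200 to 4380 bases, and their summed FPKM was 185 and 202 in control, 166 and 178 in dexamethasone, and 88.3 and 89.9 with EPC-EVs added. Its gene count was 7.4 to 12.5 CPM. Pid1, which acts in insulin signalling, had 101, with sums of 133 and 213, 173 and 110, and 94.5 and 66.5 FPKM. The 88 blocks of 1700025G04Rik summed to 155 and 213, 119 and 169, and 98.9 and 77.9 FPKM. In all 3 genes both dexamethasone + EPC-EVs libraries lay below the other 4 before scaling and overlapped with them after upper-quartile scaling, where they were at 152 and 145 FPKM for Cpa6, 163 and 107 for Pid1, and 170 and 126 for 1700025G04Rik.

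Gene lists were then taken in turn, and limma called none of the blocks tested in them, where 0.0455%, 0.0159% and 0.0819% of all transcripts were called for dexamethasone against control, dexamethasone + EPC-EVs against dexamethasone and dexamethasone + EPC-EVs against control. Osteoblast signals and factors held 108 blocks in 10 genes, of which 80, 80 and 87 were tested in these comparisons. The 3 blocks of Bmpr2, a BMP receptor, summed to 12.1 and 36.5, 6.01 and 9.64, and 0.699 and 1.18 FPKM, with no overlap between groups. Creb1, a cAMP-responsive factor, summed to 59.0 and 55.9, 40.3 and 51.0, and 30.4 and 26.6 FPKM over 22 blocks, and after upper-quartile scaling its groups overlapped. The 8 blocks of Nrp2, a semaphorin coreceptor, were highest with EPC-EVs, at 5.82 and 5.29, 2.32 and 4.22, and 7.56 and 19.2 FPKM. For dexamethasone against control, the median log2 difference over the 80 tested was -0.33. It was -0.00 over all transcripts and -0.08 over all single-exon assembled transcripts tested. For dexamethasone + EPC-EVs against dexamethasone, the median over the 80 tested was -0.38, against -0.38 over all transcripts and -0.56 over all single-exon assembled transcripts tested.

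In 7 genes of the extracellular matrix, 25 blocks were found, of which 18, 15 and 18 were tested. Lamc1 held most of their level, with sums of 88.2 and 145 FPKM in control, 56.5 and 77.8 in dexamethasone, and 19.1 and 29.9 with EPC-EVs, which did not overlap before or after upper-quartile scaling. The Lamc1 gene count stood at 592 to 694 CPM in all 6 libraries. The median over those tested was -0.50 for dexamethasone against control, against -0.00 over all transcripts, and -0.47 for dexamethasone + EPC-EVs against dexamethasone, against -0.38. Over all single-exon assembled transcripts tested these medians were -0.08 and -0.56.

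Lipid and sterol genes held 42 blocks in 8 genes, of which 35, 34 and 33 were tested. Their medians were 0.02 and -0.88 in the same comparisons, against -0.00 and -0.38 over all transcripts and -0.08 and -0.56 over all single-exon assembled transcripts tested. The 10 blocks of Insig2 summed to 60.4 and 76.1 FPKM in control, 62.8 and 70.2 in dexamethasone, and 23.1 and 21.2 with EPC-EVs. Those of Soat1, which esterifies cholesterol, summed to 27.5 and 19.3, 16.1 and 19.4, and 2.27 and 2.07 FPKM. Acsl3, an acyl-CoA synthetase, was at 27.1 and 32.0 FPKM in dexamethasone and 21.7 and 20.1 with EPC-EVs. After upper-quartile scaling the direction turned, to 25.8 and 28.7 against 37.3 and 32.5 FPKM. Its gene count rose by 0.57 on the log2 scale (edgeR adjusted p = 0.0094).

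From a list of glucocorticoid response, clock and inflammation genes, 47 blocks lay in 8 genes, of which 40, 38 and 36 were tested, with medians of 0.11 and -1.03, against -0.00 and -0.38 over all transcripts and -0.08 and -0.56 over all single-exon assembled transcripts tested. These were Ackr3, Casp8, Cflar, Hdac4, Il18r1, Il1r1, Il1rl1 and Il1rl2, none of them a clock gene. Il1r1, the interleukin-1 receptor, summed to 43.8 and 50.3 FPKM in control, 42.8 and 31.9 in dexamethasone, and 8.92 and 6.39 with EPC-EVs. Hdac4, a histone deacetylase, summed to 39.7 and 48.0, 42.7 and 56.1, and 20.3 and 18.0 FPKM. The host of small nucleolar RNAs Gas5 held 2 blocks, which summed to 0.376 and 4.01, 1.03 and 0.955, and 5.51 and 4.19 FPKM. Both dexamethasone + EPC-EVs libraries were above the other 4 for Gas5 and below them for Il1r1 and Hdac4. After upper-quartile scaling this held for Gas5 and Il1r1, while Hdac4 overlapped control.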

How the data were processed

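Total RNA from 6 libraries was sequenced by the authors, who aligned reads to GRCm38 with HISAT2, assembled transcripts with StringTie and, per the submitters' processing notes, used HTSeq 0.6.1 and DESeq2 1.26.0. The deposited transcript table gives FPKM by the authors, and the deposited gene table gives raw counts per gene. Merge settings of the assembly are not given in the sources used here. Of 3813 annotated transcripts in the table, 3801 were found in GENCODE vM21 with the same coordinates, so that annotation was used for positions. Promoter windows came from RefSeq (GRCm38.p6).

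FPKM were tested with limma 3.58.1 (R 4.3.3) on log2(FPKM + 1) over the whole transcript table, after a filter of at least 0.5 FPKM in at least 2 of 4 libraries, with Benjamini-Hochberg adjustment and a threshold of 0.05. Gene counts were tested with edgeR 4.0.16 (quasi-likelihood, TMM), with DESeq2 1.42.0 as an alternative, and the limma and edgeR steps were checked on simulated data. Alternatives were another pseudocount, filter, scaling or trend, all 6 libraries in 1 fit, a replicate block and each replicate left out. Intronic sums used genes with a mean of at least 1 FPKM. Named transcripts were the largest differences, called or, with fewer than 3 called, those with an unadjusted p under 0.05 and no overlap, the 5 highest with and without a gene name, the shortest and longest, the 3 genes with most blocks, and gene lists. The transcripts and lists were chosen with earlier results of these data known. Replicate numbers did not pair the samples. A gene of the osteoblast list is not reported here.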

Additional observations from a re-analysis of the deposited data

How the results depend on the processing

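For dexamethasone against control, 0 single-exon assembled transcripts were called under every alternative with the adjusted threshold, including each library left out (0 to 0), and 435 by an unadjusted p under 0.05 with a log2 difference beyond 1. For dexamethasone + EPC-EVs against dexamethasone, 0 became 2 with all 6 libraries in 1 fit and 1026 by the unadjusted rule. It was 3 to 198 when 1 library was left out, with 198 without dexamethasone replicate 1 and 114 without dexamethasone replicate 2. For dexamethasone + EPC-EVs against control, 1 became 0 with a pseudocount of 0.1 FPKM, without a filter, with upper-quartile scaling (also with a pseudocount of 0.1 FPKM, chosen after seeing the data) and without the variance trend, 51 with all 6 libraries, and 1082 by the unadjusted rule. It was 9 to 502 when 1 library was left out, with 502 without control replicate 1 and 209 without control replicate 2. In both comparisons with dexamethasone + EPC-EVs, the share called over all transcripts also rose whichever library was left out. These counts therefore do not set the single-exon assembled transcripts apart from the rest. Leaving out a library leaves 1 in its group, with the spread taken from the other group, and the cause of these shifts was not tested.

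For host gene counts, dexamethasone against control gave 0 calls in edgeR, 4 with DESeq2, 4 without a filter and 0 to 63 with 1 library left out (63 without control replicate 1). Dexamethasone + EPC-EVs against dexamethasone gave 176, and 102 to 167 with 1 library left out (102 without dexamethasone replicate 2). Against control it gave 152, and 99 to 192 (99 without dexamethasone + EPC-EVs replicate 2). The share of summed FPKM was 22.6% to 27.7% in control, 23.5% to 26.3% in dexamethasone and 23.4% to 23.6% in dexamethasone + EPC-EVs from single libraries. The genes with lower intronic sums in both libraries went from 260 to 141 and from 238 to 128 under upper-quartile scaling, chosen after seeing the data.

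Same-numbered libraries deviated with correlations of 0.007, 0.016 and -0.001 over 8021 transcripts. With the replicate block, 0, 0 and 1 single-exon transcripts and 2, 174 and 145 host genes were called. Of 192 further values for 18 named results, 160 kept their side of the threshold, 27 passed it and 5 no longer did. By gene count totals, 1 fragment on a block of median length equals 0.194 to 0.496 FPKM, which limits the precision of low values.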
